A study of Mus musculus with 2 samples.

Results

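Methyl-CpG binding proteins and the DNA glycosylases that open base excision repair read, protect or remove modified bases, and 10 of their genes were examined here in mouse embryonic stem cells: Mbd1, Mbd2, Mbd3, Mbd4, Uhrf2, Ung, Smug1, Neil1, Neil2 and Neil3. They were taken by name from the 21755 protein-coding genes annotated on chromosomes 1 to 19 and X. For each gene, all CpG sites were collected inside its annotated span and the 5 kb upstream of it. What was measured is the cytosine state of the genes' own DNA, and neither their transcripts nor their proteins were measured. DNA came from 2 passages of E14, a widely used mouse embryonic stem cell line grown with serum and LIF on gelatin, with no treatment, and each passage gave 1 library, called replicate 1 and replicate 2. All cells were of 1 condition, so no test between groups of samples was possible, and p-values below weigh calls within a library.

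SCoTCH-seq reads both strands of the same DNA fragment, and so gives the state of both cytosines of a CpG in 1 call. The first letter of a state stands for the plus strand: C is unmodified cytosine, M is 5-methylcytosine (mC) and H is 5-hydroxymethylcytosine (hmC). CC is therefore an unmodified CpG, MM a CpG methylated on both strands, MC/CM a CpG methylated on a lone strand, HC/CH a CpG with hmC opposite unmodified cytosine, HM/MH a CpG with hmC opposite mC, and HH a CpG with hmC on both strands. A level below is the percentage of all calls in a region that had the state. The promoter is 1 kb either side of the gene's 5′ end, and the body runs from 1 kb past the 5′ end to the 3′ end.

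As background, proteins with a methyl-CpG binding domain recognise mC in the CpG context, and some of them recruit complexes that repress transcription. Base excision repair begins when a glycosylase cuts a damaged or deaminated base from the sugar, after which an endonuclease, a polymerase and a ligase restore the strand. In embryonic stem cells, mC can be oxidised to hmC and further by TET enzymes, and repair that starts with a glycosylase is a known route from the most oxidised forms back to cytosine.

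The 10 loci held 3973 CpGs in the reference genome. Replicate 1 covered 2577 of them with 26841 calls, a mean of 10.4 calls per site, and replicate 2 covered 1035 with 6691 calls, a mean of 6.46 per site. Both replicates covered 940 sites. Coverage was thinner in promoters, where replicate 1 reached 44.2% and replicate 2 reached 16.1% of the CpGs, than in bodies, where it reached 75.2% and 31.4%. Synthetic duplexes of known state in the same libraries showed that the replicates differed in several error rates. Duplexes with mC on both strands were misread as HM/MH at a rate of 4.51% in replicate 1 but of 0.467% in replicate 2. They were misread as HH at 0.709% and 0.0117%. Another error was larger in replicate 2: a true HC was called HM, and a true CH was called MH, in 1.12% and 3.98% of calls. A true MC or CM was called HC/CH in 3.49% and 0.618% of calls, and a true MM was called HC/CH in 0.167% and 0.105%. Levels are therefore given as called and, where named as corrected, after solving for the error rates measured in that replicate. Intervals are exact 95% Clopper-Pearson intervals, which cover counting error only, since calls at neighbouring sites can come from the same read pair.

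**Figure D1:**
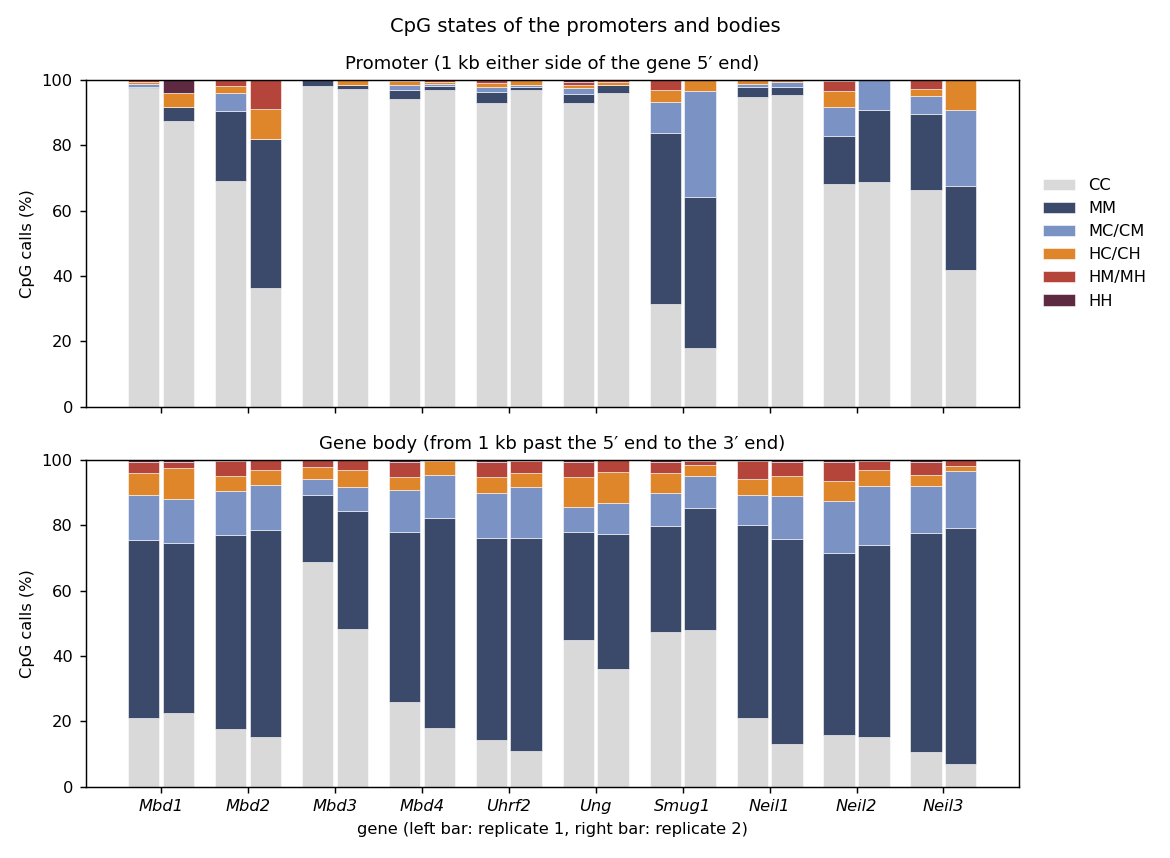
Share of calls (%, vertical axis) in each of 6 CpG states for the promoter (upper panel) and the body (lower panel) of each gene, with replicate 1 on the left and replicate 2 on the right of each pair of stacked bars. Promoters of Mbd1, Mbd3, Mbd4, Uhrf2, Ung and Neil1 are CC in at least 87.5% of calls in both replicates, that of Smug1 in no more than 31.5%, and bodies are mostly MM except in Mbd3, Ung and Smug1.

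CC made up at least 80% of promoter calls in both replicates in 6 genes, Mbd1, Mbd3, Mbd4, Uhrf2, Ung and Neil1. Of the 5 genes with at least 5 sites and 50 calls in the promoter of both replicates, 5 passed that level, against 62.7% of the 11181 genes that met the same minimum. The other 4 promoters, of Mbd2, Neil2, Neil3 and Smug1, held less CC over the 2 kb, and Smug1 was the lowest in both replicates. The split into 6 and 4 depends on coverage and on the width of the promoter. Mbd2 had only 16 and 2 covered sites there, and Mbd1 only 4 in replicate 2. Close to the 5′ end, Mbd2, Neil2 and Neil3 were more unmodified, as given below.

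The body of the 5 testable genes, Mbd3, Mbd4, Uhrf2, Ung and Neil1, held more MM and more MC/CM than the promoter in both replicates, by Fisher's exact test per gene and replicate with Benjamini-Hochberg adjustment over 10305 genes (threshold 0.05). That was 5 of 5 genes for MM, against 87.2% of all genes tested, and 5 of 5 for MC/CM, against 63.7%. HC/CH was higher in the body in 2 of 5, Ung and Mbd4, against 12.2% of all genes tested. HM/MH passed in both replicates in 0 of 5, against 0.485% of all genes. At an unadjusted p under 0.05 in both replicates, 3 of 5 passed for HC/CH (Ung, Mbd4 and Neil1), against 26.1% of all genes, and 3 of 5 for HM/MH (Neil1, Mbd3 and Uhrf2), against 14.9%. In replicate 1 alone, the deeper library, 5 of 5 passed the adjusted threshold for both hmC states, as did 6464 of all 10305 genes for HC/CH and 7267 for HM/MH. All these tests used calls before correction. Replicate 1 misread MM as HM/MH at a rate of 4.51%, and these bodies held more MM than their promoters. HM/MH in replicate 1 after correction was, in body and promoter, 0.995% and 0% in Mbd3 and 2.18% and 0.435% in Mbd4. It was 1.72% and 0.928% in Uhrf2, 2.93% and 0.788% in Ung, and 2.72% and 0.139% in Neil1. As called, the bodies had 1.97%, 4.64%, 4.69%, 4.48% and 5.50% in that order. Corrected levels were not tested.

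Mbd1 encodes a transcriptional repressor that binds methylated CpGs (plus strand, chr18:74267605-74282732, GRCm38). Its promoter was CC in 293 of 301 calls (97.3%) in replicate 1 and in 21 of 24 calls (87.5%) in replicate 2, which rest on 41 and 4 sites. Its body was MM in 54.3% and 51.8% of calls, where the medians of all genes were 55.5% and 60.4%, and 45.2% and 26.2% of genes had less. HC/CH in the body was 6.72% (89 of 1325 calls, interval 5.43 to 8.20%) in replicate 1 and 9.52% (32 of 336 calls, interval 6.61 to 13.2%) in replicate 2. Against the summed bodies of all other genes, at 4.58% and 4.11%, this was 1.47 and 2.32 times as high, with adjusted p = 0.0014 and 0.00016 by Fisher's exact test over 17343 genes. With only sites that both replicates covered, the excess of Mbd1 no longer passed (larger adjusted p = 0.386 by Fisher's exact test), and with at least 10 calls per site its mean was 14.8%. That mean is imprecise: replicate 2 had 336 calls over 52 body sites, so only a minority of them can hold 10 calls. Its HM/MH after correction was 0.706% and 1.20%, the lowest mean of the 10 bodies, with a range that overlapped that of Mbd4, the next in order.

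Mbd2 encodes the methyl-CpG binding subunit of one form of the NuRD repressor complex (plus strand, chr18:70568189-70626131). Its promoter is CpG-rich, with 130 CpGs against a median of 62 over all genes, but only 16 of them were covered in replicate 1 and 2 in replicate 2. CC there was 69.0% of 145 calls and 36.4% of 11 calls. Within 500 bp of the 5′ end it was 94.7% (36 of 38 calls) and 4 of 5 calls, from 5 sites and 1 site, so the promoter of Mbd2 could not be measured well at this coverage. The body, with 460 and 182 sites, was MM in 59.1% and 63.2% and HC/CH in 4.80% and 4.66% of calls, which differed by less than the counting intervals from each other and did not pass the test against other bodies (adjusted p = 0.55 and 0.52 by Fisher's exact test).

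Mbd3 encodes the NuRD subunit that takes the place of MBD2 and, in mammals, binds methylated DNA only weakly (minus strand, chr10:80392539-80399550). Its promoter had the highest CC of the 10, at 98.0% and 97.0% of calls, but the lead was small and was not tested. Mbd1 was at 97.3% in replicate 1, and Uhrf2 and Mbd4 were at 96.9% and 96.8% in replicate 2. HC/CH was called there in 0 of 497 calls in replicate 1, which allows a level of up to 0.604%, and in 2 of 135 calls in replicate 2. Its body stood apart as well, since CC made up 68.8% of body calls in replicate 1 and 48.4% in replicate 2, more than in 96.4% and 91.9% of all genes. In this gene of 7012 bp, each covered bin of 500 bp from the 5′ end to 5 kb was CC in at least 69.1% of calls in replicate 1, and in at least 50% in replicate 2. The annotation places the 5′ ends of 3 shorter transcripts there, Mbd3-202, Mbd3-205 and Mbd3-206, at 3831, 4224 and 4380 bp from the gene's 5′ end. CC within 500 bp of them was 78.3%, 84.3% and 86.5% in replicate 1 and 91.7%, 88.0% and 92.3% in replicate 2. Further on, between 5.5 and 6 kb, it was 24.6% and 9.09%.

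Body HC/CH of Mbd3 was 3.81% (27 of 709 calls) and 5.02% (11 of 219 calls), and HM/MH was 1.97% and 3.20% as called. Of the calls other than CC, however, HC/CH made up 12.2% and 9.73%, where the median gene had 6.58% and 5.30%. Mbd3 was above 89.96% and 84.5% of all genes by that measure, which was chosen after the data were seen.

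**Figure D2:**
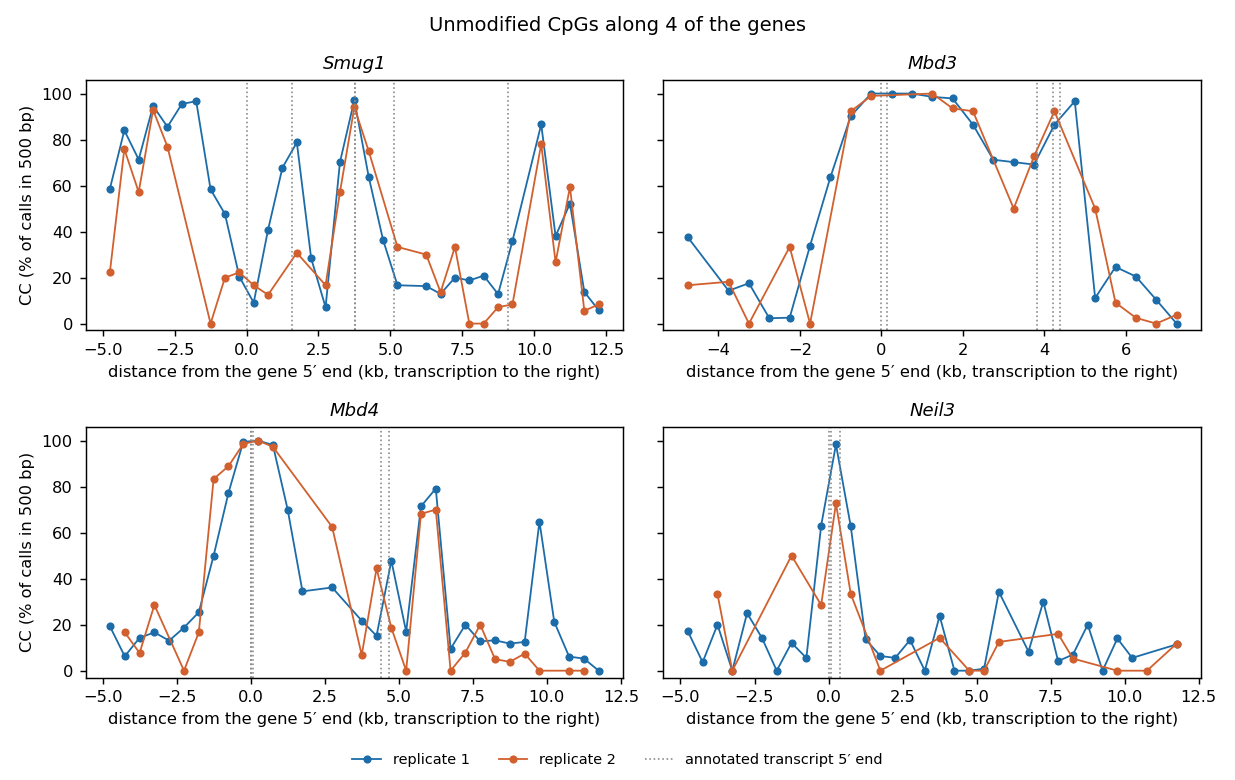
Share of calls that were CC (%, vertical axis) in bins of 500 bp by distance from the gene's 5′ end (kb, horizontal axis, transcription to the right) for Smug1, Mbd3, Mbd4 and Neil3, with replicate 1 in blue, replicate 2 in orange and annotated transcript 5′ ends as dotted lines. Smug1 has low CC at distance 0 and a peak of 97.2% and 94.0% between 3.5 and 4 kb, Mbd3 stays at or above 50% from the 5′ end to 5 kb, and Mbd4 and Neil3 each have a peak at distance 0.

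Mbd4 encodes a glycosylase with a methyl-CpG binding domain, which removes thymine or uracil opposite guanine, the products of deaminated mC and C in a CpG (minus strand, chr6:115840697-115853371). It lies head to head with Ift122, an intraflagellar transport gene on the plus strand, and their 5′ ends enclose only 98 bp, so the promoter levels belong to both genes. This gap, chr6:115853372-115853469, is shown because both 5′ ends border it and few of its CpGs were covered. It is given in the direction of Mbd4 from the GRCm38.p6 reference, and capitals mark the CpGs that were covered.

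Mbd4-Ift122 gap: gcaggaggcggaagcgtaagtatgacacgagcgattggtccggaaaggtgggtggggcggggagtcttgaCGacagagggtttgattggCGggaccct

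The gap holds 8 CpGs, of which 2 were covered in replicate 1 and 0 in replicate 2, and 11 of 12 calls were CC. Around it the promoter was well covered, with 63 and 36 sites, and CC made up 581 of 618 calls (94.0%) and 240 of 248 calls (96.8%). Within 500 bp of the 5′ end CC was 99.7% and 99.2%. HC/CH was 1.13% in the promoter and 4.14% in the body in replicate 1, and 0.403% and 4.22% in replicate 2 (adjusted p = 0.00097 and 0.039 by Fisher's exact test). The call was lost with a promoter of 500 bp either side (larger adjusted p = 0.152 by Fisher's exact test), on sites in both replicates (0.0514), and with a chi-square test scaled by the spread between sites (0.0728). HM/MH in the body was 4.64% as called in replicate 1 and 0.325%, or 1 of 308 calls, in replicate 2, and 2.18% and 0.104% after correction.

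Uhrf2 encodes a RING finger protein whose SRA domain is known to bind hmC (plus strand, chr19:30030513-30093722). Its promoter is the most CpG-rich of the 10, with 177 CpGs, and was CC in 92.8% and 96.9% of calls. Its long body, with 384 and 201 sites, was among the more methylated, with MM in 61.7% and 65.1%. HC/CH was 4.88% (240 of 4922 calls) and 4.46% (61 of 1368 calls), with the tightest intervals of the set together with Mbd2, 4.29 to 5.52% and 3.43 to 5.69%. That was within 0.3 and 0.351 percentage points of the summed bodies of other genes, and did not pass the test (adjusted p = 0.41 and 0.68 by Fisher's exact test).

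Ung encodes the main nuclear and mitochondrial uracil glycosylase (plus strand, chr5:114130386-114139323). Its body held more HC/CH than that of any other of the 10 genes in either replicate: 9.16% (90 of 983 calls, interval 7.43 to 11.1%) and 9.63% (26 of 270 calls, interval 6.39 to 13.8%). The mean was 9.39 ± 0.335% (SD, n = 2 replicates), above 98.7% and 97.7% of 17343 genes. Set against the summed bodies of other genes, it was 2.00 and 2.34 times as high (adjusted p = 7.8e-09 and 0.00072 by Fisher's exact test). The call held on sites in both replicates, with the 5′ end of the principal transcript and with the scaled test, where the larger adjusted p was 0.00029, 0.00028 and 0.0022. With at least 10 calls per site, Ung fell short of the minimum for the test.

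The promoter of Ung was CC in 92.9% and 96.1% of calls and HC/CH in 0.820% and 1.12%, so that body and promoter differed in HC/CH by 8.34 and 8.51 percentage points (adjusted p = 6.2e-09 and 0.004 by Fisher's exact test). Body CC was also high, at 45.0% and 35.9%, and MM was 33.0% and 41.5%, with lower MM in 9.56% and 13.3% of all genes. Of the calls other than CC, HC/CH made up 16.6% and 15.0%. HC/CH was 8.11% and 5.41% in the exons of the body and 11.1% and 14.8% in its introns. Summed over the 10 genes, exons and introns of the body had 5.72% and 4.75% in replicate 1 and 4.93% and 4.86% in replicate 2. The contrast in Ung was not tested. The unmodified stretch at the 5′ end was followed upstream by another between 2 and 3.5 kb away, where each bin of 500 bp was CC in 95.1 to 100% of calls, and which holds the 5′ end of the neighbour Alkbh2, an alkylation repair gene on the minus strand 2167 bp from Ung.

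Only 9 CpG sites in the 10 loci had at least 2 HC/CH calls in each replicate, 0.957% of the 940 sites in both, against 1.17% over all protein-coding loci. Ung had 2 of them, both in introns, at chr5:114135810 (6 of 10 and 2 of 6 calls) and chr5:114136162 (2 of 7 and 2 of 5 calls). Mbd4 and Neil2 had 1 intronic site each, at chr6:115846296 (5 of 12 and 2 of 6 calls) and chr14:63192263 (4 of 19 and 3 of 9 calls). These 4 are shown with 30 bases on either side because hmC opposite C was read there in both replicates, as it was at 2 more intronic sites, in Mbd1 and Mbd2, whose sequence is not shown here. Each is in the direction of its gene from GRCm38.p6, with the CpG itself in capitals.

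Ung, first site: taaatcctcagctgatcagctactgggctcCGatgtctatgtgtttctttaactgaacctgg
Ung, other site: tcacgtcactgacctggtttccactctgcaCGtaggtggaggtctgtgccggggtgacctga
Mbd4 site: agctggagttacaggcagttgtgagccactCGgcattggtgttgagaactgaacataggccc
Neil2 site: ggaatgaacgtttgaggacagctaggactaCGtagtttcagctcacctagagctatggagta

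The windows of 62 bases hold few CpGs, namely 1, 3, 1 and 2 in the order shown. The remaining 5 sites lay in exons of Smug1 (chr15:103155937, 2 of 5 and 3 of 5 calls), Mbd1 (chr18:74282398) and Neil1 (chr9:57143069) and in introns of Mbd1 (chr18:74275542) and Mbd2 (chr18:70601537). With 5 to 20 calls at a site, none of these levels is precise. The sites were also picked for their HC/CH calls, which favours high levels. Other calls could differ between replicates: at the first Ung site, MM was called 0 and 4 times and CC 3 and 0 times.

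Smug1 encodes a uracil glycosylase that also removes 5-hydroxymethyluracil (minus strand, chr15:103153290-103167092). Its promoter had the lowest CC of the 10 in both replicates: it was 41 of 130 calls (31.5%) in replicate 1 and 5 of 28 calls (17.9%) in replicate 2, and MM was 52.3% and 46.4%. Its promoter has 16 CpGs, and 17.1% of genes have fewer. CC was instead high inside the gene, where the annotation places the 5′ ends of Smug1-204 and Smug1-206 at 3765 and 3774 bp from the gene's 5′ end. Within 500 bp of them, 24 and 14 sites were covered and CC was 91.8% and 89.9%, against 18.3% (11 of 60 calls) and 3 of 15 calls within 500 bp of the gene's 5′ end, where 6 and 2 sites were covered.

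Sequence from both places is shown because the levels differ between them. The windows are the 200 bases upstream of the gene's 5′ end, chr15:103167093-103167292, and the 200 bases of intron upstream of the exon that holds the inner 5′ ends, chr15:103163438-103163637. Both are read in the direction of Smug1, with covered CpGs in capitals.

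Gene 5′ end: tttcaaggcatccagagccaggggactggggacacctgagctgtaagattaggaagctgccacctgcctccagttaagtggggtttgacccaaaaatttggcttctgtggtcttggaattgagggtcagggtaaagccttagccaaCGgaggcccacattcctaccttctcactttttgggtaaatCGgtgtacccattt
Inner 5′ ends: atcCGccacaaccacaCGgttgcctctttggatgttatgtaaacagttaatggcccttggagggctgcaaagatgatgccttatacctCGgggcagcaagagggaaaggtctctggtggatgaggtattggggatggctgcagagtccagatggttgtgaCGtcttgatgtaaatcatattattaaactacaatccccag

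The outer window holds 2 CpGs, with CC in 4 of 18 and 2 of 9 calls. The inner window holds 4 CpGs, with CC in 28 of 36 and 11 of 13 calls. A further unmodified stretch lay upstream of Smug1, where the bin from 3 to 3.5 kb before the gene was CC in 94.6% of calls at 26 sites and in 92.9% at 8 sites. No gene is annotated within 5 kb upstream. Near the 3′ side, the bin from 10 to 10.5 kb was CC in 86.6% and 78.0% of calls.

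In the body of Smug1 the replicates differed, with HC/CH at 6.15% (85 of 1383 calls) and 3.31% (11 of 332 calls). It passed the test against other bodies in replicate 1 (adjusted p = 0.015) but lay on the other side of the summed bodies in replicate 2 (adjusted p = 0.75, Fisher's exact test). Over the whole gene, hmC in HC/CH was called on the sense strand 57 times and on the antisense strand 29 times in replicate 1, and 5 and 7 times in replicate 2.

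Neil1 encodes a glycosylase of the Nei-like family that removes oxidised bases (minus strand, chr9:57142800-57148305). Its promoter was CC in 94.8% and 95.4% of calls, and 99.2% and 96.7% within 500 bp of the 5′ end. In its short body, with 45 and 24 sites, HC/CH was 5.00% (20 of 400 calls) and 6.25% (9 of 144 calls) and HM/MH 5.50% and 4.17%. After correction HM/MH was 2.72% and 3.77%, the highest mean of the 10 bodies at 3.24 ± 0.742% (SD, n = 2), although its range overlapped that of Ung, which came next.

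Neil2 encodes a relative of NEIL1 that also acts on oxidised pyrimidines (minus strand, chr14:63182443-63193856). CC was 68.0% and 68.8% of promoter calls, and 98.5% and 100% within 500 bp of the 5′ end, from 18 and 4 sites, so the unmodified stretch was narrower than the 2 kb of the promoter. Its body had the highest MC/CM of the 10 genes in replicate 1, 16.2%, and in replicate 2, 17.9%, above 87.4% and 87.0% of all genes. The range overlapped that of Neil3, the next in order (14.5% and 17.2%), and this order was not tested. In the Neil2 body, HC/CH was 5.88% and 5.11%.

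Neil3 encodes the Nei-like glycosylase known for its action on single-stranded DNA and on crosslinked strands (minus strand, chr8:53586867-53639065). It was the most methylated body, with MM in 66.7% and 72.3% of calls, above 96.1% and 94.9% of all genes, and CC in 10.8% and 6.92%. HC/CH was the lowest of the 10, at 3.25% (97 of 2983 calls, interval 2.64 to 3.95%) and 1.78% (9 of 506 calls, interval 0.817 to 3.35%). This was 0.710 and 0.433 times the level of the summed other bodies (adjusted p = 0.00098 and 0.023 by Fisher's exact test), but the call was lost with the test scaled by the spread between sites (larger adjusted p = 0.164) and on sites in both replicates (0.0659). Its promoter was CC in 66.3% and 41.9% of calls, from 29 and 7 sites, with a peak of 98.3% and 72.7% in the first 500 bp of the gene.

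**Figure D3:**
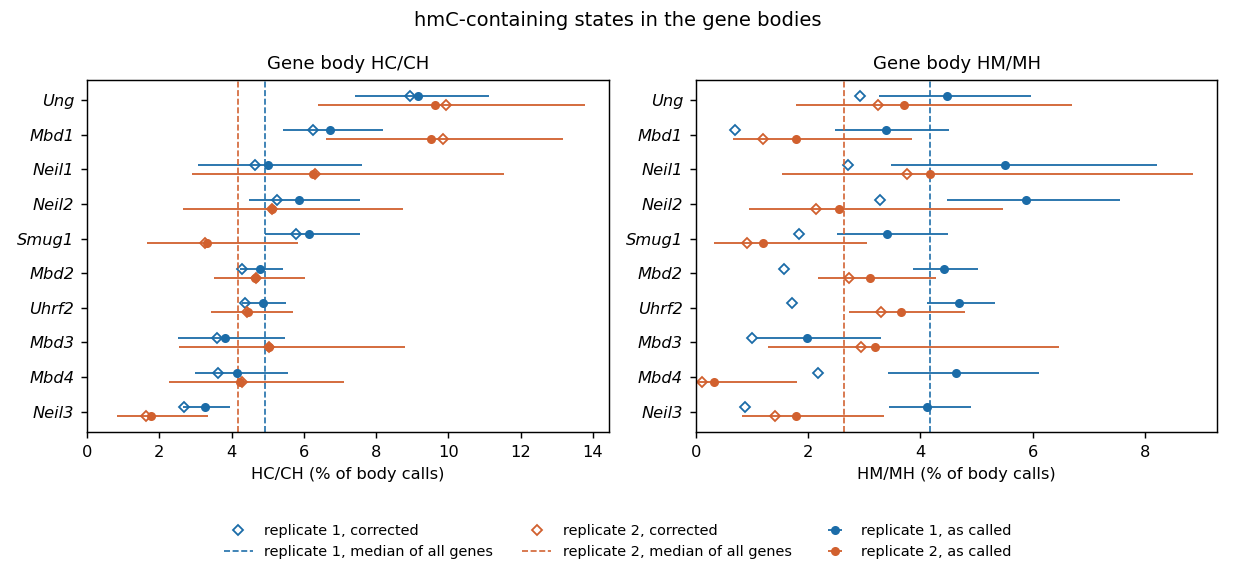
HC/CH (left) and HM/MH (right) as a percentage of body calls (horizontal axes) for each gene, in order of mean HC/CH. Filled circles are levels as called with exact 95% intervals, open diamonds are levels corrected with the error rates of their own replicate, and dashed lines are the medians of all genes as called. As called, Ung, Mbd1, Neil1 and Neil2 lie to the right of both medians for HC/CH and Neil3 to the left, and correction lowers HM/MH in replicate 1 more than in replicate 2.

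Ordered by mean body HC/CH, the genes ran from Ung (9.39%) and Mbd1 (8.12%) through Neil1 (5.62%), Neil2 (5.49%), Smug1 (4.73%), Mbd2 (4.73%), Uhrf2 (4.67%), Mbd3 (4.42%) and Mbd4 (4.18%) to Neil3 (2.52%). The ranges of the replicates overlapped between all neighbours in this order except Mbd1 and Neil1, and Mbd4 and Neil3. After correction, Mbd1 and Neil1 overlapped as well. In all, 2 of 10 bodies were above the summed other bodies in both replicates, against 13.4% of all genes tested, and 1 of 10 was below, against 9.06%. By level alone, 4 of 10 (Mbd1, Ung, Neil1 and Neil2) were above the median of all genes in both replicates, against 39.3% of genes. The median of the 10 genes was 4.94% in replicate 1 and 4.84% in replicate 2, beside 4.92% and 4.19% over all genes.

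HM/MH did not set any of the 10 bodies apart in both replicates: 0 of 10 were above and 0 of 10 below the summed other bodies, against 2.1% and 2.25% of all genes, and 0 of 10 passed in either direction at an unadjusted p under 0.05 in both, against 5.03% above and 4.64% below. The medians were 4.45% and 2.83% as called and 1.78% and 2.43% after correction. As called, HC/CH exceeded HM/MH in both replicates in 6 of 10 bodies, against 58.6% of all genes. After correction this was 10 of 10, against 85.1%.

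hmC in HC/CH showed no strand preference that passed the test. Over the whole genes together, 523 HC/CH calls had hmC on the sense strand and 483 on the antisense strand in replicate 1, and 115 and 128 in replicate 2. By an exact binomial test per gene and replicate, 0 of 10 genes passed in both replicates, against 0.0% of 12465 genes tested in either direction. At an unadjusted p under 0.05, 0 of 10 passed in both, against 0.104% of all genes for the sense and 0.152% for the antisense strand. The smallest unadjusted p of the 10 genes was that of Smug1 in replicate 1 (p = 0.0034, adjusted p = 0.36, exact binomial test), whose balance was on the other side in replicate 2. Neil1 had 14 sense and 7 antisense calls in replicate 1, and 9 and 1 in replicate 2 (p = 0.021, adjusted p = 0.64 in replicate 2, exact binomial test). In replicate 2, Mbd3, Mbd4, Neil1, Neil2, Smug1 and Neil3 had only 10 to 13 HC/CH calls each. At such counts even a strong imbalance could hardly pass after adjustment, so the test cannot show that a strand preference is absent.

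Along the loci, HC/CH was highest in stretches with an intermediate share of unmodified CpGs. Bins of 500 bp were classed by CC in one replicate, and HC/CH was then read in the other, so that class and level did not share calls. In the 121 bins of the 10 loci with CC of 20 to 80% in replicate 1, HC/CH in replicate 2 was 6.65% (interval 5.59 to 7.84%), compared with 4.20% (3.54 to 4.94%) in the 227 bins with CC under 20% and 1.37% (0.826 to 2.13%) in the 40 bins with CC of 80% or more. With the roles of the replicates exchanged, it was 6.53%, 5.10% and 0.815%. All protein-coding genes had the same order, with 6.004%, 3.38% and 1.80% in replicate 2 and 6.20%, 4.58% and 1.45% in replicate 1. MC/CM had another order: read in replicate 2, it was 16.4% in the bins with the least CC, 12.2% in the middle bins and 0.720% in the bins with the most CC, beside 16.1%, 12.7% and 1.89% over all protein-coding genes. This comparison was added after the data were seen and has no test.

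**Figure D4:**
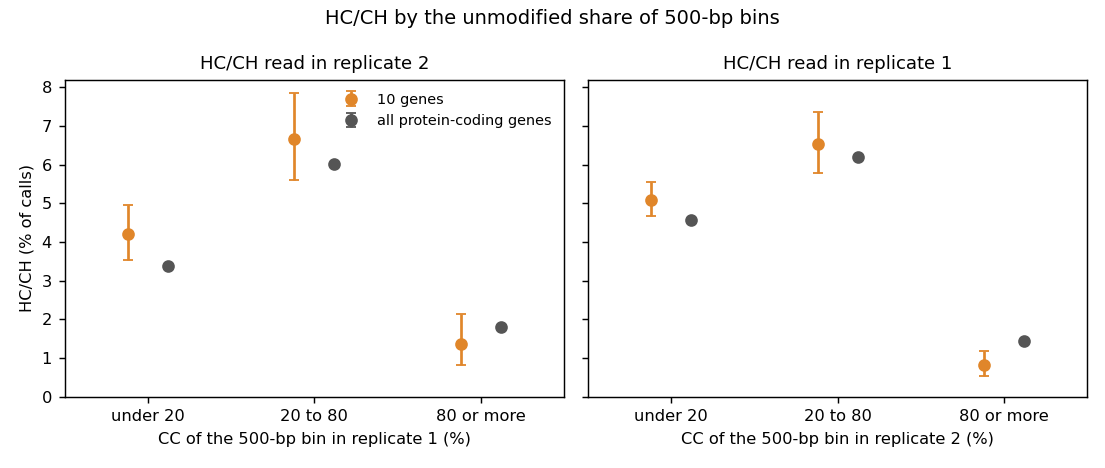
HC/CH as a percentage of calls (vertical axis) in bins of 500 bp grouped by their CC level in the other replicate (horizontal axis, %), for the 10 genes (orange) and all protein-coding genes (grey), with exact 95% intervals that are smaller than the points for all genes. In both panels the middle class is highest, at 6.65% and 6.53% for the 10 genes.

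Other genes were drawn from 2 lists, of which the first holds both known readers of modified CpGs and proteins that share a related domain without being established readers. Among these 10 genes, 9 had enough calls, and 6 of 9 were above the median body HC/CH of all genes in each replicate. They were the same 6 in both, where 39.3% of all genes were above it in both. Ranked by the lower of the replicates, the highest were Mbd6, which carries such a domain but is not known to bind methylated DNA (7.16% and 7.32%), and Zbtb38, a zinc finger protein that binds methylated DNA (6.88% and 7.10%), and the lowest were Mbd5, a relative of Mbd6 (3.15% and 2.46%), and Setdb2 (4.06% and 1.72%). Among 15 further base excision repair genes, 11 were above that median in replicate 1 and 7 in replicate 2, and those 7 were above it in both. Parp1, which senses strand breaks (6.63% and 7.45%), and Xrcc1, the scaffold of the repair complex (7.98% and 6.19%), were highest, and the endonuclease genes Apex1 (1.93% and 2.41%) and Apex2 (3.87% and 0.758%) were lowest. The Apex1 body was little methylated, with MM in 8.88% and 14.5% of calls, where the median gene had 55.5% and 60.4%. Ung lay above each of the named genes in both replicates.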

How the data were processed

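SCoTCH-seq libraries were made from genomic DNA of 2 passages of E14 mouse embryonic stem cells. Per the methods and the processing notes in the labels, the authors filtered and trimmed reads with Cutadapt (4.6), aligned the inserts to GRCm38 (mm10) with BSBolt, removed duplicates with Picard (3.1.1) and called 1 of 9 CpG states from each read pair. The deposited count is the number of calls of a state at a CpG site, and the deposited percent is that count over the depth of the site, times 100. The percent was checked against the counts, and only the counts were used. The authors had discarded sites with fewer than 5 calls, blacklisted regions and sites with repeated calling errors, in each replicate, and had not corrected the values with the spike-ins. The labels and the methods give different serum contents of the medium.

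Replicate 1 held 143497239 calls at 13676795 sites and replicate 2 held 31306245 calls at 4918612 sites, with median depths of 10 and 6, so levels are given for regions and rarely for single sites. Values were computed in Python 3.11.15 with NumPy 2.4.6, pandas 2.3.3, SciPy 1.17.1 and Numba 0.67.0, and plots were drawn with Matplotlib 3.10.9. Genes, exons and transcript 5′ ends came from GENCODE vM21, and reference CpGs and sequences from the RefSeq copy of GRCm38.p6. All covered sites of the 10 loci fell on the C of a reference CpG when counted from 1. For the correction, error rates were computed from the duplexes of each replicate, the 9 linear equations of the study were solved and negative solutions were set to 0, so corrected levels can sum to slightly over 100%.

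Calls were summed over sites, and all tests used the calls before correction. Fisher's exact test, two-sided, compared a state with all other calls between promoter and body or between a body and the summed bodies of all other genes, and an exact binomial test, two-sided, compared strands in genes with at least 10 HC/CH calls in each replicate. Tests ran per replicate over all genes with at least 5 sites and 50 calls in each region in both replicates, with Benjamini-Hochberg adjustment over all of them, and a gene was called at an adjusted p under 0.05 in both replicates in the same direction. For a state never called, the limit given is 3 calls over the total. The scripts were tested on simulated data.

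The 10 genes are all named. The other lists name up to 4 genes each, those with the highest and lowest body HC/CH by the lower of the replicates, and single sites were named from at least 2 HC/CH calls in each replicate. The members and lists were chosen with earlier results of these data known. Alternatives were a minimum of 10 calls per site, only sites in both replicates, a promoter of 500 bp either side, the 5′ end of the APPRIS principal transcript, a chi-square test scaled by the spread between sites, means of per-site percentages, correction with own or joint error rates, and leaving out each replicate. Levels around each annotated transcript 5′ end, HC/CH among the calls other than CC, and the classes of bins were added after the data were seen.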

Additional observations from a re-analysis of the deposited data

How the results depend on the processing

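No paired analysis was possible because the series holds 1 group of 2 replicates. The members called, of those tested, changed as follows. With at least 10 calls per site, 0 of 1 passed for promoter against body HC/CH in place of 2 of 5, 1 of 1 for MC/CM and 1 of 1 for MM in place of 5 of 5, and 0 of 3 bodies were above and 0 of 3 below the other bodies in HC/CH in place of 2 and 1 of 10, since few members kept enough calls. On sites in both replicates, HC/CH passed in 1 of 5 for promoter against body, and 1 body was above and 0 below. With a promoter of 500 bp either side, and with the scaled test, promoter against body HC/CH passed in 1 of 5, and with the scaled test 0 bodies were below. The share of all gene bodies called in HC/CH on sites in both replicates or by the scaled test is not given here. These member counts therefore have no background beside them. Leaving out each replicate gave 2 to 5 calls for promoter against body HC/CH, 0 to 5 for HM/MH, and 1 body below the others in HM/MH either way, Mbd4 without replicate 1 and Mbd3 without replicate 2. These tests used levels as called. Mbd3 in replicate 1 had 4.55% of genes below it as called but 26.3% after correction, at 0.995%. Mbd4 in replicate 2 had 4.69% of genes below it as called and 4.65% after correction. Corrected levels were not tested.

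The median body HC/CH of 4.89% became 4.64% with at least 10 calls per site (7 genes with calls), 4.75% on sites in both replicates, 4.68% and 4.64% with own and joint correction, 4.81% with the body from 500 bp on, 6.42% of the calls other than CC, and 4.84 to 4.94% without each replicate. The median HM/MH of 3.64% became 2.19% with at least 10 calls per site and 2.11% and 1.99% with own and joint correction. The median MC/CM of 13.3% became 15.5%, 13.9% on sites in both, 12.6% as a mean of per-site percentages, 12.3% with either correction and 12.4% with the body from 500 bp on, and the median MM of 57.8% became 49.9% with at least 10 calls per site and 52.4% with the body from 500 bp on. The count of 6 promoters with CC of 80% or more ranged from 4 to 9 over the alternatives. The causes of these shifts were not tested. Over all genes, promoter against body HC/CH was called in 1253 genes, in 375 by the scaled test, 654 on sites in both replicates, 373 with a promoter of 500 bp either side, 3 of 130 with at least 10 calls per site and 6464 without replicate 2. HM/MH, called in 50, gave 10, 15, 3, 1 and 7267 in the same order, while MC/CM (6567) and MM (8990) gave 4087 and 4997 with the narrow promoter and 83 and 123 of 130 with at least 10 calls. For promoter against body, the scaled test and the counts without replicate 2 cover the same 10305 genes as the main test. On sites in both replicates and with the narrow promoter the minimum was applied again. The number of genes tested can differ there, so those counts are not shares. Bodies above and below the others in HC/CH (2325 and 1572) became 213 and 100 of 7434 with at least 10 calls and 5725 and 3666 without replicate 2. In HM/MH (365 and 390) they became 8 and 4, 151 and 209 on sites in both, 962 and 662 without replicate 1 and 1642 and 2008 without replicate 2, and 257 were below by the scaled test. Replicate 2 has 24 or fewer promoter calls in Mbd1 and Mbd2, and its depth limits every promoter value.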
